A study of Mus musculus with 8 samples.

Results

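The genes of secreted Wnt proteins, their receptors and their modulators were examined in mouse sympathetic ganglia with and without full *Isl1* function. The set was taken by gene symbol, and holds the *Wnt* ligands, the *Fzd*, *Lrp5*, *Lrp6*, *Ror1*, *Ror2* and *Ryk* receptors, the *Rspo* and *Lgr* genes with *Znrf3*, the *Sfrp* and *Dkk* antagonists, and the *Dvl*, *Axin*, *Tcf7*, *Lef1*, *Vangl* and *Prickle* genes. It came to 53 of the 14189 genes listed at either stage, with 51 listed at embryonic day (E) 11.5, 50 at E14.5 and 48 at both. A further 13 of the 66 protein-coding genes that the symbols match in the mm9 annotation had no row in the tables used here and were not analysed: *Wnt1*, *Wnt3a*, *Wnt7a*, *Wnt8a*, *Wnt8b*, *Wnt9b*, *Wnt10a*, *Wnt10b*, *Fzd10*, *Rspo4*, *Lgr6*, *Rnf43* and *Dkk4*.

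*Isl1* encodes a LIM homeodomain transcription factor of sympathetic neurons, and 8 RNA-seq libraries of dissected ganglia compared mutant with unmutated embryos, with 2 libraries for each genotype and stage and ganglia of about 10 embryos pooled in each. At E11.5 the *Isl1* CKO was Wnt1-Cre;Isl1 f/f, labelled Isl1-/-, and its control was Wnt1-Cre;Isl1+/+, labelled wild type. Both carried the Rosa26-tdTomato reporter, and the Cre driver, which uses regulatory sequence of *Wnt1* itself, acts in neural crest lineages, so cells of other origin in a ganglion keep *Isl1*. At E14.5 *Isl1* hypomorphic embryos, Isl1 f-neo/f-neo and labelled Isl1 mutation, were set against wildtype embryos, and here every cell carries the weakened allele. Sex, strain and sequencing batch are not given in the labels, and nothing in them says whether the 2 libraries of a group came from separate litters.

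Wnt proteins are lipid-modified, secreted signals. Bound to a Frizzled receptor and LRP5 or LRP6 they engage Dishevelled, draw Axin away from the complex that destroys β-catenin, and let β-catenin work with TCF/LEF factors on target genes. Bound to Frizzled with ROR or RYK receptors they act on cell polarity and movement through Dishevelled, Vangl and Prickle. In neural crest development canonical Wnt signals act in crest induction and in the expansion of crest progenitors, and *Wnt5a* is known as a branching signal in sympathetic axons.

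The deposited tables hold 1 value per gene for each genotype and stage, in FPKM, sequenced fragments scaled to transcript length and to the number of mapped fragments. Each value stands for both libraries of a group together. No value of a single library was available, so no difference below has a replicate check, an error or a test, and read depth is unknown. Ratios are given as log2((mutant FPKM + 0.1)/(control FPKM + 0.1)), here called the log2 ratio, which understates the fold of genes with low FPKM. A gene is counted as higher or lower where this ratio was 1.5-fold or more. *Isl1* itself was 132.6 FPKM in E11.5 control and 40.0 FPKM in *Isl1* CKO ganglia, a log2 ratio of -1.73, and 162 FPKM in E14.5 wildtype and 83.1 FPKM in hypomorphic ganglia, a log2 ratio of -0.96. All 14 sympathetic neuron markers looked up were listed at both stages in every genotype. The tables list only genes that reach 1 FPKM in at least 1 genotype, so a gene at 1 FPKM or more in 1 genotype alone had to differ. This held for 5 of the 51 genes at E11.5 (*Wnt6*, *Wnt7b*, *Wnt9a*, *Fzd9*, *Rspo1*) and for 3 of the 50 at E14.5 (*Wnt3*, *Dkk1*, *Lef1*).

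Ganglia with intact *Isl1* had transcripts for every step of the pathway, and the secreted antagonists and receptors were more abundant than the ligands. In E11.5 control ganglia the highest level of the set was that of *Sfrp1*, a secreted decoy that binds Wnt proteins, at 62.4 FPKM, which is above 90.1% of all genes listed. The Wnt receptor tyrosine kinase *Ryk* followed at 44.8 FPKM, *Sfrp2* at 32.7 FPKM and *Dvl3* at 29.9 FPKM. The 10 listed ligands summed to 31.3 FPKM, of which *Wnt5a* alone made 13.6 FPKM, while the 9 Frizzled receptors summed to 77.4 FPKM and the 4 *Sfrp* genes to 101 FPKM. FPKM is scaled to transcript length, so these levels can be set beside each other, but how much ganglion cells and other cells of the tissue each contributed was not measured. In bulk ganglia fewer cells of a type and less RNA per cell cannot be told apart.

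At E11.5, 22 of the 51 genes were 1.5-fold or more higher in *Isl1* CKO than in control ganglia, against 18.9% of all 13506 genes listed, and 6 were 1.5-fold or more lower, against 12.9% of all genes. The 22 make 43.1% of the set and the 6 make 11.8%, so the share of higher genes stood above the background and the share of lower genes near it. Of the 22, *Wnt6*, *Wnt7b*, *Wnt9a*, *Fzd9* and *Rspo1* were below 1 FPKM in control ganglia, so they had to be higher to be listed. Among the 46 genes at 1 FPKM or more in both genotypes, 17 were higher and 6 were lower. The 17 make 36.96%, against 15.49% of all genes under the same filter. The median log2 ratio of the set was 0.47, beside 0.05 for all genes, whose central 50% lay between -0.31 and 0.45. The higher genes were mostly ligands (7 of 10 listed), Frizzled receptors (6 of 9) and R-spondins (3 of 3). Among *Sfrp* antagonists 2 of 4 were higher, among *Dkk* antagonists 0 of 2, and among planar cell polarity genes 2 of 6. The 6 lower genes were *Fzd5*, *Lgr5*, *Wnt16*, *Znrf3*, *Dvl1* and *Dvl3*.

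**Figure D1:**
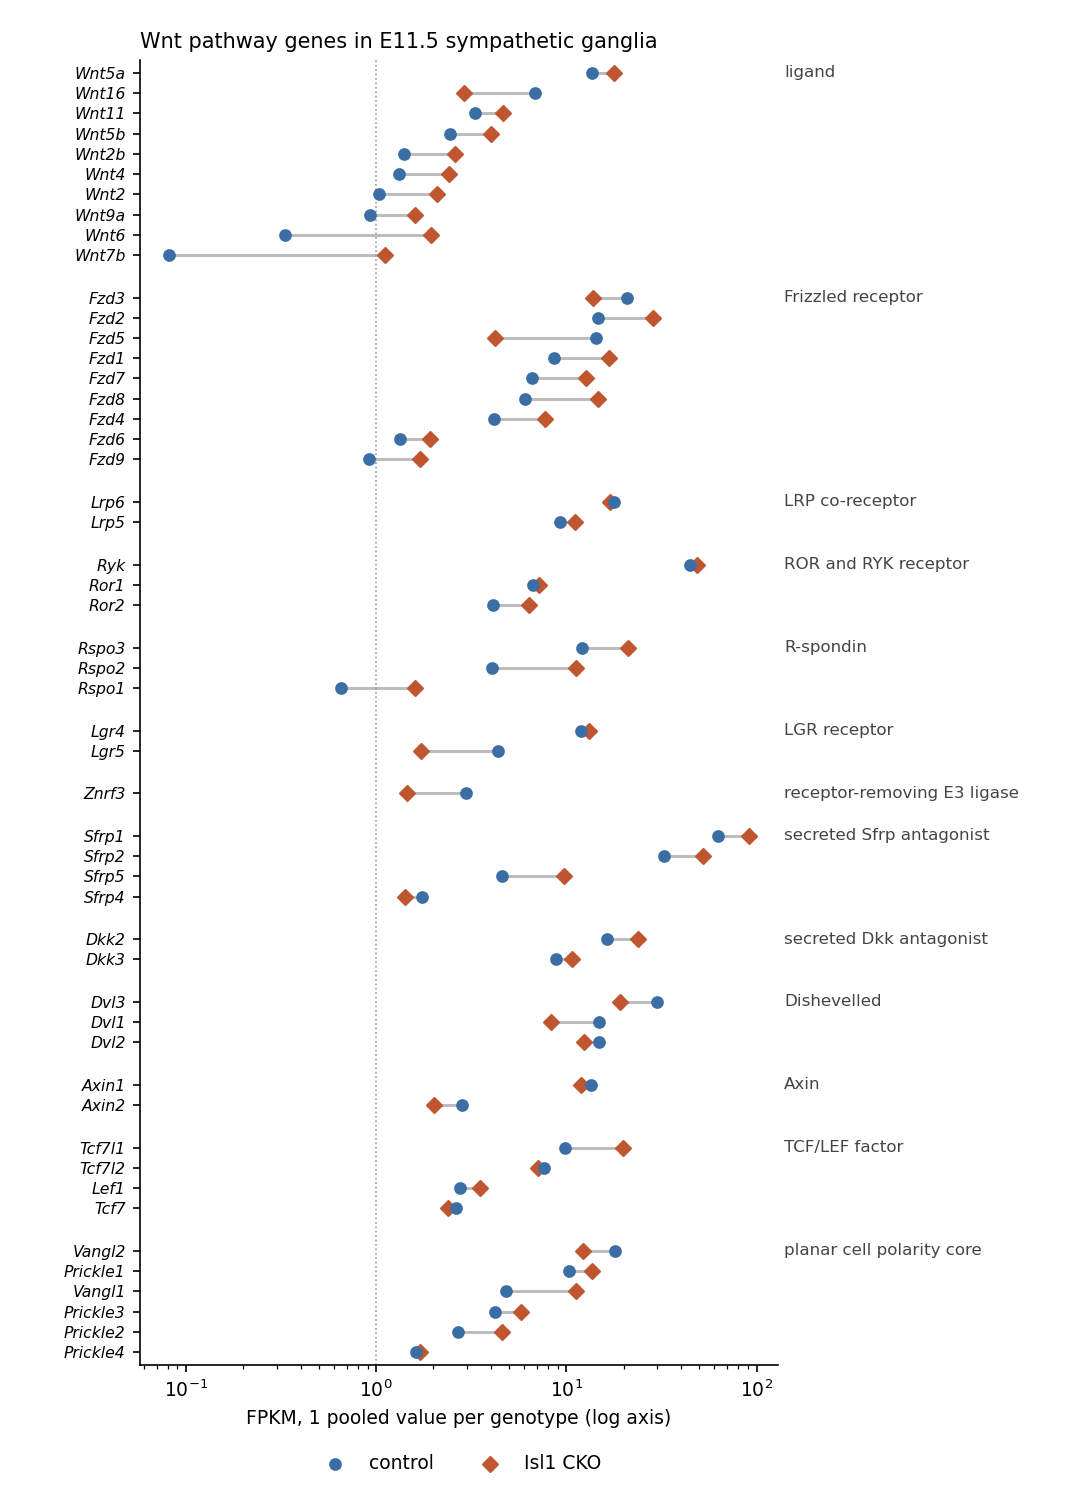
FPKM of the 51 genes in E11.5 control (circles) and Isl1 CKO (diamonds) ganglia, 1 pooled value per genotype, on a log axis and grouped by role, with no error because single libraries were not available. The longest lines to the left belong to Fzd5, from 14.3 to 4.19 FPKM, and to Lgr5 and Wnt16, whereas most ligands, Frizzled receptors and all 3 R-spondins have the CKO point to the right.

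Among the ligands, 9 of 10 had a log2 ratio above 0 and *Wnt16* was the exception. *Wnt16* was 6.86 FPKM in control and 2.89 FPKM in CKO ganglia, 2.37-fold lower, with a log2 ratio of -1.22, and passed from the second most abundant ligand in control to the fourth in CKO ganglia. *Wnt5a*, the most abundant ligand and one that mostly acts without β-catenin, was 13.6 FPKM in control and 17.7 FPKM in CKO ganglia, which is within 1.5-fold. *Wnt11*, a ligand of the polarity branch, stood at 3.32 and 4.64 FPKM, also within 1.5-fold, and its relative *Wnt5b* at 2.45 and 4.02 FPKM, 1.64-fold higher. *Wnt2b* (1.4 and 2.58 FPKM), *Wnt4* (1.32 and 2.42 FPKM) and *Wnt2* (1.03 and 2.09 FPKM) were likewise higher, and *Wnt2* and *Wnt4* were listed at E11.5 only. The remaining 3 ligands were below 1 FPKM in control ganglia, so they had to be higher to be listed. *Wnt9a* was at 0.922 and 1.59 FPKM, *Wnt6* at 0.332 and 1.93 FPKM, and *Wnt7b* at 0.0818 and 1.12 FPKM. The log2 ratios of 2.23 for *Wnt6* and 2.74 for *Wnt7b* were the highest of the set, and both rest on control values near the foot of the table. In the mm9 annotation *Wnt6* lies 6.2 kb from *Wnt10a* on chromosome 1 and *Wnt9a* lies 16.2 kb from *Wnt3a* on chromosome 11, both neighbours without a row in the tables used here. The exons of *Wnt5a*, *Wnt11* and *Wnt7b* overlap genes on the opposite strand, whose reads these unstranded libraries cannot separate.

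*Fzd5* had the lowest log2 ratio of the set. This Frizzled receptor (mm9 chr1:64777134-64784324, minus strand) was 14.3 FPKM in control and 4.19 FPKM in CKO ganglia, 3.42-fold lower, with a log2 ratio of -1.75. *Fzd3*, the most abundant Frizzled of control ganglia and a receptor required for axon guidance, was 20.8 and 13.8 FPKM, and its log2 ratio of -0.58 lay just inside the threshold. The other 7 Frizzled genes had ratios above 0, and 6 of them were 1.5-fold or more higher. Of these 6, *Fzd9* was below 1 FPKM in control ganglia and had to be higher to be listed. *Fzd2* was 14.7 FPKM in control and 28.6 FPKM in CKO ganglia, *Fzd1* 8.58 and 16.7 FPKM, *Fzd7* 6.57 and 12.6 FPKM, *Fzd8* 6.05 and 14.6 FPKM, *Fzd4* 4.18 and 7.74 FPKM, and *Fzd9* 0.919 and 1.70 FPKM. *Fzd2* thereby stood first among the Frizzled genes of CKO ganglia and *Fzd5* seventh of 9. The closely related *Fzd1*, *Fzd2* and *Fzd7* lay between 1.92-fold and 1.95-fold higher, while *Fzd5* and its nearest relative *Fzd8* lay on opposite sides of 0.

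Promoter sequence is shown for *Fzd5*, which had the lowest ratio at E11.5, *Fzd1*, one of the higher receptors, *Wnt16*, which was past 1.5-fold at both stages, and *Dkk1*, which had the lowest ratio at E14.5 but is a gene of low FPKM. RefSeq windows of 300 bases on GRCm38.p6, from 250 before to 50 after the annotated start, matched 36 of the 53 genes. None was at hand for the other 17: *Axin1*, *Dkk3*, *Fzd2*, *Fzd3*, *Fzd6*, *Fzd8*, *Lgr5*, *Lrp5*, *Lrp6*, *Rspo2*, *Rspo3*, *Sfrp1*, *Sfrp4*, *Vangl1*, *Wnt5a*, *Wnt7b* and *Znrf3*. The 2 motifs marked in capitals are CTTTGA, the core of the TCF/LEF element, and CTAATG, a core bound by LIM homeodomain proteins, each also read on the other strand as TCAAAG and CATTAG. The *Fzd5* window (chr1:64737701-64738000, minus strand) holds CATTAG at bases 7 and 222, the *Fzd1* window (chr5:4758167-4758466, minus strand) holds TCAAAG at base 9, the *Wnt16* window (chr6:22287977-22288276, plus strand) holds neither motif, and the *Dkk1* window (chr19:30549447-30549746, minus strand) holds TCAAAG at base 77 and CTTTGA at base 134, counted from the 5′ end.
Fzd5: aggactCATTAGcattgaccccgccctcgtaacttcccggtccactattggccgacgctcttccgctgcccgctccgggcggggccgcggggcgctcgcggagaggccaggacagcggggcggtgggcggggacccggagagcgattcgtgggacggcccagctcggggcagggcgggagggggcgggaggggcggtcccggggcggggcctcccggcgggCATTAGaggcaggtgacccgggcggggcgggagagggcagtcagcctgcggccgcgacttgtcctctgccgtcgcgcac
Fzd1: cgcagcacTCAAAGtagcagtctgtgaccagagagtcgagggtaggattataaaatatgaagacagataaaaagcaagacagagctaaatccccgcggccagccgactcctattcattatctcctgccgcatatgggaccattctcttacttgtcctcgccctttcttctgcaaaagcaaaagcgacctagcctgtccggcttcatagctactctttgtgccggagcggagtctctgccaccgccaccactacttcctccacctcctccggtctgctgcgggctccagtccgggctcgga
Wnt16: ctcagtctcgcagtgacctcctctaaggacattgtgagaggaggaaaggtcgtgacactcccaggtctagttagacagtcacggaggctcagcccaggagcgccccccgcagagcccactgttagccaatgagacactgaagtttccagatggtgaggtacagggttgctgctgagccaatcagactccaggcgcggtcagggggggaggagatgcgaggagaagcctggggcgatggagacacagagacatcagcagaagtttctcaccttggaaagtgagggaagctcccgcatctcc
Dkk1: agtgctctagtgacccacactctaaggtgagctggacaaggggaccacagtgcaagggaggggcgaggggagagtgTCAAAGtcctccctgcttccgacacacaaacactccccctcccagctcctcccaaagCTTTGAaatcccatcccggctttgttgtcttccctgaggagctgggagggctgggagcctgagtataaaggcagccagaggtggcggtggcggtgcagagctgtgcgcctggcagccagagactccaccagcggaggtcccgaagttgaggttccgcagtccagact
Such matches are common in windows of this length and describe the letters alone. CTTTGA on either strand was present in 16.0% of all 32851 windows and at least 2 copies in 1.73%, and CTAATG on either strand in 7.36% and at least 2 copies in 0.381%. Of the 36 genes with a window, 7 held CTTTGA (*Dkk1*, *Fzd1*, *Lef1*, *Prickle2*, *Ror1*, *Wnt11* and *Wnt5b*) and 2 held CTAATG (*Fzd5* and *Prickle2*). Counted by gene, these are 19.4% and 5.56% of the set, against 18.2% and 8.49% of all 27025 genes with a window. Of the 7 genes with CTTTGA, 6 were listed at E11.5, with log2 ratios from 0.11 for *Ror1* to 0.96 for *Fzd1*. The *Ror1* ratio turned negative when the values were rescaled without erythroid genes. Of the whole set at E11.5, 70.6% had ratios above 0. The 2 genes with CTAATG lay on opposite sides of 0, *Fzd5* at -1.75 and *Prickle2* at 0.74. The motifs were among 7 searched and were chosen with the expression values known.

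The co-receptors stayed within 1.5-fold at E11.5. *Lrp6*, which passes the signal to Axin, was 17.8 FPKM in control and 17.0 FPKM in CKO ganglia, and *Lrp5* was 9.30 and 11.2 FPKM. Of the receptors of the β-catenin-independent branch, *Ryk* was 44.8 and 48.5 FPKM, *Ror1* was 6.66 and 7.21 FPKM, and *Ror2*, a receptor of WNT5A, was 4.09 and 6.32 FPKM, the only one of the 3 past 1.5-fold. The small positive log2 ratios of *Ryk* (0.12), *Ror1* (0.11) and *Lgr4* (0.13) turned negative when the values were rescaled without erythroid genes, so no direction is given for them.

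The R-spondin genes were higher in CKO ganglia, whereas *Lgr5* and *Znrf3* were lower and *Lgr4* was within 1.5-fold. R-spondins are secreted proteins that bind LGR receptors and keep the E3 ligases ZNRF3 and RNF43 from removing Frizzled from the cell surface. Of the 3 listed R-spondins, all past 1.5-fold, *Rspo3* was 12.1 and 21.2 FPKM, *Rspo2* 4.08 and 11.2 FPKM, which is 2.76-fold, and *Rspo1* 0.654 and 1.59 FPKM. *Rspo1*, below 1 FPKM in control ganglia, had to be higher to be listed. *Lgr5*, in contrast, was 4.36 FPKM in control and 1.71 FPKM in CKO ganglia, 2.55-fold lower, with a log2 ratio of -1.30. *Znrf3*, which is both a brake on the pathway and a known target of it, was 2.96 and 1.46 FPKM, a log2 ratio of -0.97. *Lgr4*, the more abundant LGR receptor, was 12 and 13.1 FPKM, within 1.5-fold.

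The *Sfrp* antagonists had the highest summed FPKM of any role at E11.5, with Frizzled, LRP and ROR or RYK receptors counted apart. Of the 6 secreted antagonists listed at E11.5, 2 were higher in CKO ganglia. *Sfrp1* was 62.4 FPKM in control and 90.7 FPKM in CKO ganglia, a log2 ratio of 0.54 and just inside 1.5-fold, *Sfrp2* was 32.7 and 51.9 FPKM and *Sfrp5* was 4.58 and 9.74 FPKM, both past it. *Sfrp4* was the exception at 1.74 and 1.42 FPKM. The 4 *Sfrp* genes summed to 101 FPKM in control and 154 FPKM in CKO ganglia. *Dkk2*, which binds LRP5 and LRP6, was 16.4 and 23.7 FPKM, and *Dkk3*, a divergent member of its family, was 8.81 and 10.7 FPKM, both within 1.5-fold.

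Inside the cell the Dishevelled genes lay below 0 as a group. *Dvl1* was 14.8 FPKM in control and 8.26 FPKM in CKO ganglia, a log2 ratio of -0.84, *Dvl3* was 29.9 and 19.2 FPKM, a log2 ratio of -0.64, and *Dvl2* was 14.8 and 12.4 FPKM, within 1.5-fold. Their sum was 59.6 FPKM in control and 39.9 FPKM in CKO ganglia. The *Dvl2* value is uncertain, since 1151 bases of its exons overlap *Acadvl* on the opposite strand, and 36 bases of *Dvl1* overlap *Tas1r3*. *Axin1*, the scaffold of the β-catenin destruction complex, was 13.5 and 11.9 FPKM, and *Axin2*, the scaffold that the pathway itself induces in many tissues, was 2.84 and 2.01 FPKM, a log2 ratio of -0.48 and within 1.5-fold. Among the nuclear factors *Tcf7l1*, which mostly acts as a repressor, was 9.86 FPKM in control and 19.9 FPKM in CKO ganglia, 2.01-fold higher, whereas *Tcf7l2* (7.63 and 7.08 FPKM), *Lef1* (2.74 and 3.50 FPKM) and *Tcf7* (2.61 and 2.39 FPKM) were within 1.5-fold.

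The planar cell polarity genes did not lie on one side. *Vangl2*, the more abundant of the Vangl pair of membrane proteins, was 17.9 FPKM in control and 12.2 FPKM in CKO ganglia, a log2 ratio of -0.54 and within 1.5-fold. *Vangl1* was 4.79 and 11.2 FPKM, 2.33-fold higher, so the ratio of the pair was unlike in the 2 genotypes. *Prickle2*, a cytoplasmic partner of the Vangl proteins, was 2.70 and 4.58 FPKM, past 1.5-fold, while *Prickle1* (10.3 and 13.6 FPKM), *Prickle3* (4.23 and 5.77 FPKM) and *Prickle4* (1.63 and 1.70 FPKM) were within it. *Prickle4* shares 859 exon bases with *Tomm6* on the same strand and *Prickle3* shares 246 with *Plp2*, so part of their values may be reads of those genes.

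Other genes of the pathway were looked up from lists outside the symbol rule. Of 97 listed genes 19 were 1.5-fold or more higher in CKO ganglia, 11 were lower, and the median log2 ratio was 0.14. These are 19.6% and 11.3% of the genes, near the 18.9% and 12.9% of all genes. Both genes for making and releasing Wnt proteins were higher, *Wls*, which carries them to the cell surface, at 18.4 and 39.6 FPKM and *Porcn*, which attaches their lipid, at 6.45 and 11.1 FPKM. Of 10 listed extracellular inhibitors 3 were higher and 1 was lower, and *Igfbp4* stood at 142 and 250 FPKM. Of 10 co-receptors and cofactors 2 were higher, 1 was lower and 7 were within 1.5-fold, among them the most abundant, *Gpc3*, at 205 and 283 FPKM.

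The intracellular lists leaned less to one side. Of 27 destruction complex genes and regulators 4 were lower, namely *Apc* (27.2 and 15.5 FPKM), *Gsk3b* (45.4 and 30.2 FPKM), *Csnk1e* (96.2 and 63.1 FPKM) and *Amer2* (19.5 and 4.56 FPKM). *Dact1*, a Dishevelled partner, was the 1 higher gene of that list at 15.7 and 34.6 FPKM. β-catenin itself, *Ctnnb1*, was 333 FPKM in control and 410 FPKM in CKO ganglia, and of the 17 genes of its list 3 were lower (*Smarca4*, *Crebbp*, *Ep300*), general coactivators and a chromatin remodeller, and none of the 17 was 1.5-fold or more higher. Of the 17 further polarity genes *Celsr3*, an adhesion receptor of neurons, was lower at 25.7 and 11.2 FPKM and 2 were higher (*Fuz*, *Wdpcp*).

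Genes outside the symbol rule that are known in other tissues as β-catenin targets mostly had ratios above 0. Of 20 looked up 14 were listed and 6 had no row. Of the 14 listed, 11 were above 0, 9 were 1.5-fold or more higher and 1 was lower. Their median log2 ratio was 0.67. Over all genes 18.9% were higher, 12.9% were lower and the median was 0.05. *Sox17*, *Neurog2* and *Fgf9* were below 1 FPKM in control ganglia, so they had to be higher to be listed. *Sox17* is also among the endothelial markers looked up, and *Neurog2* among the sensory neuron markers. The lower gene, *Ccnd1*, encodes cyclin D1 and had the highest level of the list, 831 FPKM in control and 123 FPKM in CKO ganglia, a log2 ratio of -2.75. *Sp5*, among the most direct of the targets, was 1.08 and 2.85 FPKM. *Twist1*, a mesenchyme gene too, was 12.4 and 22.8 FPKM. *Myc*, at 15.4 and 13.5 FPKM, was within 1.5-fold. Within the set, *Axin2* (log2 ratio -0.48) and *Lef1* (0.34), which are targets as well as components, were also within 1.5-fold. *Znrf3*, likewise a target and a component, was lower, with a log2 ratio of -0.97.

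**Figure D2:**
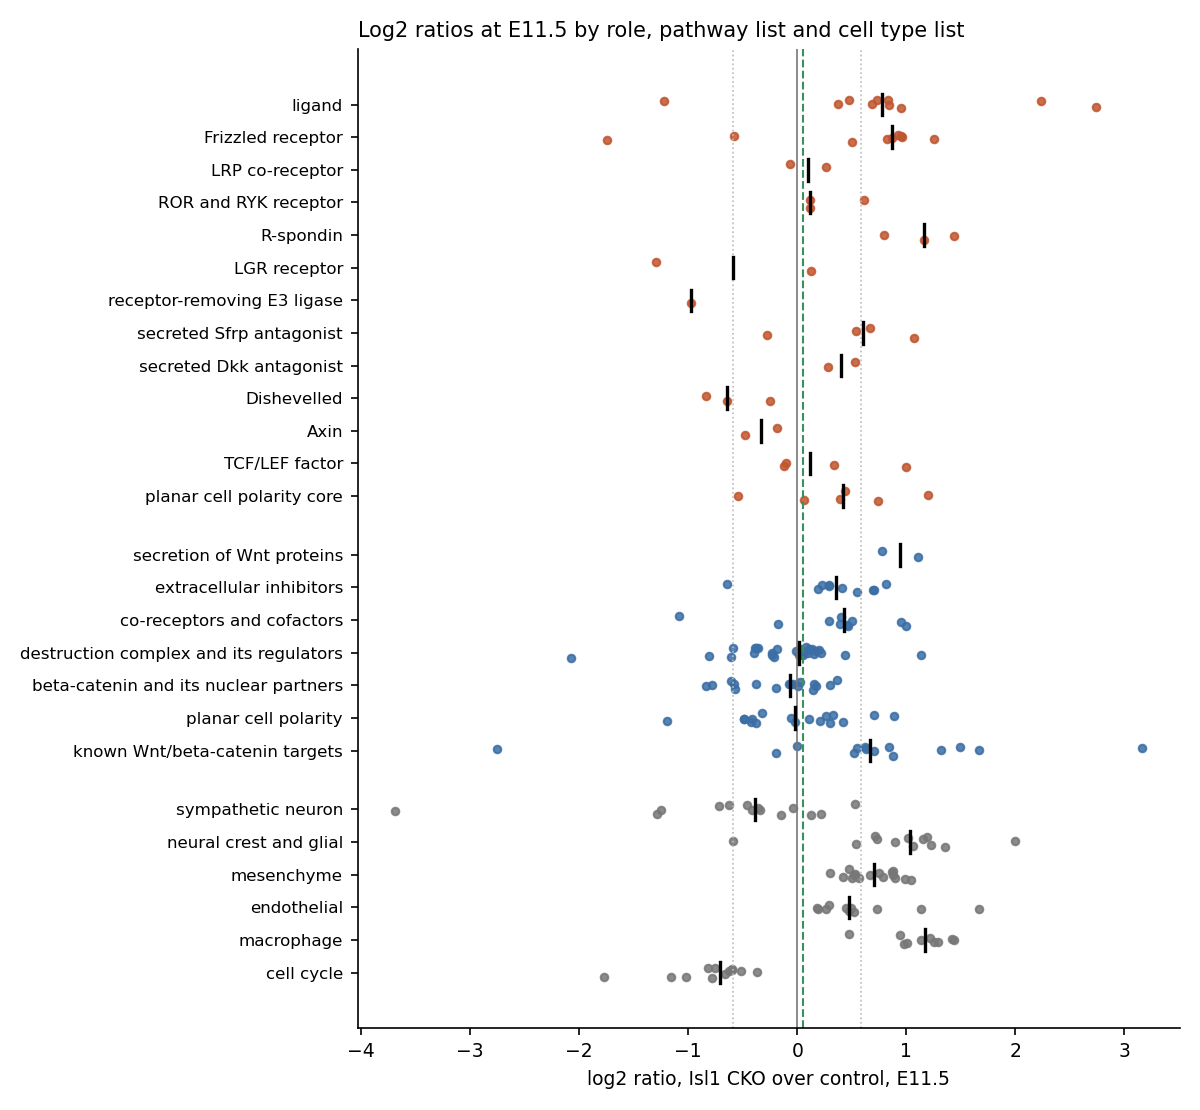
Log2 ratio of Isl1 CKO over control at E11.5 for the genes of each role (orange), each pathway list outside the symbol rule (blue) and 6 cell type or cell state lists (grey), 1 point per gene with a black bar at the median; the dashed line is the median of all genes, 0.05, and dotted lines mark 1.5-fold. By their medians, the ligands, Frizzled receptors, R-spondins and Sfrp genes lie to the right with the mesenchyme, crest, endothelial and macrophage lists. The Dishevelled genes lie to the left with the sympathetic neuron and cell cycle lists.

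Markers of other cells also differed between the genotypes at E11.5. All 16 mesenchyme markers had log2 ratios above 0, 9 of them 1.5-fold or more, and their summed FPKM was 805 in control and 1366 in CKO ganglia, with none at 0. Of 12 neural crest and glial markers 10 were higher and 1 was lower (423 and 808 FPKM in sum), and of 10 macrophage markers 9 were higher (49.6 and 109 FPKM). Of 14 sympathetic neuron markers 5 were lower and none was 1.5-fold higher (3229 and 2871 FPKM), and of 12 cell cycle genes 10 were lower (1272 and 743 FPKM). The shares over all genes were 18.9% higher and 12.9% lower. The part of these markers in the differences of the Wnt genes was not tested.

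Listed genes from lists made for tissues outside the ganglion were mostly higher in CKO ganglia as well. All 8 listed epithelial markers, of 10 looked up, were higher, against 18.9% of all genes. They were in sum 5.60 FPKM in control and 61.8 FPKM in CKO ganglia, with *Krt18* at 2.13 and 22.6 FPKM. In this and the next lists, a gene below 1 FPKM in control ganglia could be listed only through its CKO value. All 10 listed yolk sac markers were higher, with sums of 243 and 932 FPKM. That list includes the collagen and laminin genes *Col4a1*, *Col4a2*, *Lama1* and *Lamb1*, which are not particular to yolk sac. Its sum was 500 FPKM in E14.5 wildtype ganglia, and *Amn*, *Apob*, *Cubn* and *Rhox5* were not listed. Of 5 listed trophoblast markers 4 were higher, with sums of 2.34 and 89.5 FPKM, and 6 more were not listed. *Wnt6* and *Wnt7b*, known as genes of epithelia, had the highest ratios in the same comparison, and the part of these tissues in them was not tested. Erythroid transcripts took 2.29% of the summed FPKM in control and 11.2% in CKO ganglia. The embryonic globin gene *Hbb-y* was 7552 FPKM in control and is listed at exactly 0 in CKO ganglia, where 4 other globin genes were 16.3-fold to 26.4-fold higher. A 0 of this kind can be a failed estimate, and the CKO share is without that gene. Without erythroid genes the all-gene median became -0.18, and 16 of the 51 Wnt pathway genes were higher and 9 were lower, while the distance of their median from that of all genes stayed at 0.42. These are 31.4% and 17.6% of the set, against 12.2% and 22.5% of all genes on the same scale. Higher genes then made 64.0% of those past 1.5-fold, against 78.6% as deposited. Over all genes these shares were 35.2% and 59.4%.

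At E14.5 the Wnt pathway genes of hypomorphic and wildtype ganglia lay close together. Of the 50 listed genes 46 were within 1.5-fold, 2 were higher, or 4%, against 2.89% of all 13413 genes, and 2 were lower, or 4%, against 2.12% of all genes. The counts stood near the background. The median log2 ratio was 0.10 beside 0.003 for all genes, and 38 of the 50, or 76%, were above 0 against 50.7% of all genes. In the same comparison 14 of 15 mesenchyme markers were above 0, with sums of 1613 and 1801 FPKM, as were all 11 endothelial markers, with sums of 106 and 146 FPKM, and none of either list was at 0. All 12 cell cycle genes were above 0 too, with sums of 427 and 611 FPKM, as were all 10 macrophage markers. Of 12 neural crest and glial markers 9 were above 0 and 3 below, and of 14 sympathetic neuron markers 6 were above 0 and 8 below. The part of these lists in the small positive ratios was not tested.

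**Figure D3:**
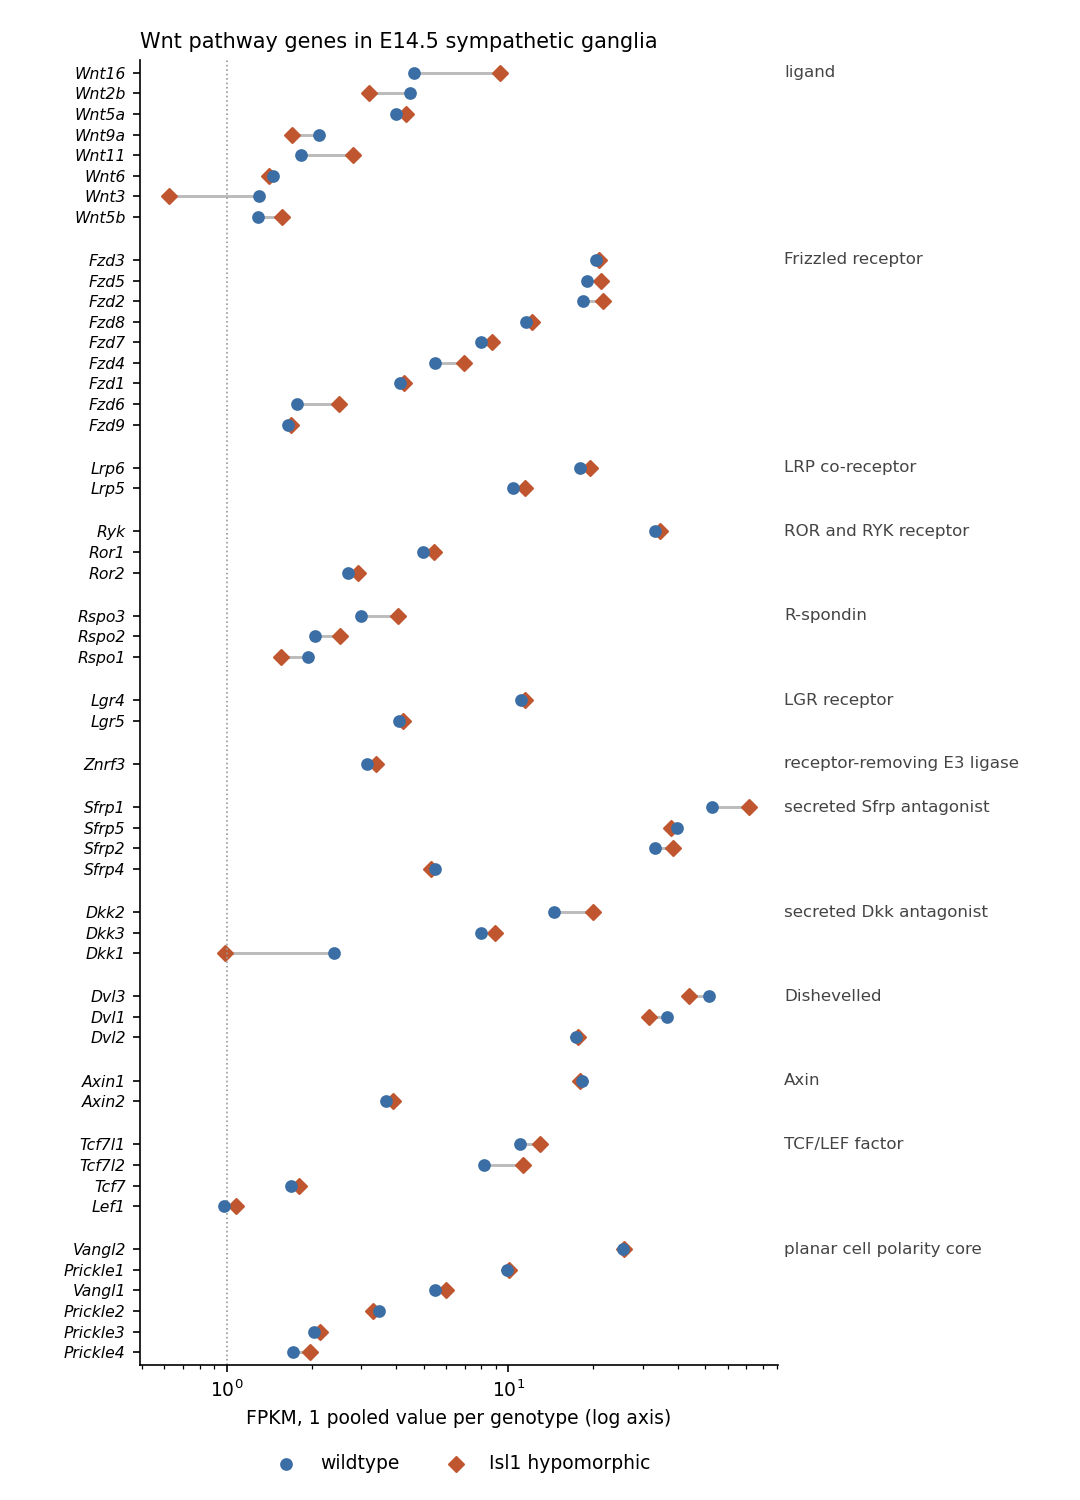
FPKM of the 50 genes in E14.5 wildtype (circles) and Isl1 hypomorphic (diamonds) ganglia, 1 pooled value per genotype, on a log axis and grouped by role, with no error because single libraries were not available. Most pairs of points touch, and the long lines belong to Wnt16, from 4.63 to 9.33 FPKM, and to Dkk1 and Wnt3, whose hypomorphic points lie below 1 FPKM.

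*Wnt16* (mm9 chr6:22238227-22250409, plus strand) had the highest ratio. It was 4.63 FPKM in wildtype and 9.33 FPKM in hypomorphic ganglia, 2.01-fold higher, with a log2 ratio of 0.99, and was the most abundant ligand of both genotypes. *Wnt11* was the other higher gene, at 1.83 and 2.82 FPKM, a log2 ratio of 0.60 that barely passed the threshold. The lower pair was low throughout: *Dkk1*, a secreted inhibitor that binds LRP5 and LRP6 (mm9 chr19:30620353-30624155, minus strand), was 2.41 FPKM in wildtype and 0.983 FPKM in hypomorphic ganglia, a log2 ratio of -1.21, and *Wnt3*, a ligand of the β-catenin branch, was 1.31 and 0.625 FPKM, a log2 ratio of -0.95. Both were listed at E14.5 only, and both had to differ to be below 1 FPKM in 1 genotype. *Dkk2*, which binds the same receptors as *Dkk1*, was 14.5 and 20.0 FPKM, within 1.5-fold.

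Receptors and intracellular parts were nearly level at E14.5. All 9 Frizzled genes had ratios between 0.03 and 0.47, with *Fzd3* at 20.4 and 21.0 FPKM and *Fzd5*, the lowest of the E11.5 ratios, at 19.0 FPKM in wildtype and 21.3 FPKM in hypomorphic ganglia. *Lgr5* was 4.08 and 4.21 FPKM and *Znrf3* 3.15 and 3.39 FPKM. *Dvl3* stood at 51.5 and 43.8 FPKM and *Dvl1* at 36.5 and 31.6 FPKM, with log2 ratios of -0.23 and -0.21 that are below 0, as at E11.5, but within 1.5-fold. Of the antagonists *Sfrp1* was 52.9 and 71.2 FPKM, *Sfrp5* 39.5 and 37.7 FPKM and *Sfrp2* 33.1 and 38.3 FPKM. *Tcf7l2* had the largest ratio of the TCF/LEF factors, 8.19 and 11.2 FPKM, and *Lef1* was near the foot of the table at 0.976 and 1.08 FPKM. Of 92 listed pathway genes outside the symbol rule only *Frzb*, a secreted Frizzled-related antagonist, was past 1.5-fold, at 2.32 and 3.83 FPKM, and *Ccnd1* was 782 and 809 FPKM.

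Side by side, the 48 genes listed at both stages had mostly small ratios at E14.5 whatever their ratio was at E11.5. Of these 48, 25 were past 1.5-fold at E11.5 and 2 at E14.5, and *Wnt16* alone was past it at both, in opposite directions, from -1.22 at E11.5 to 0.99 at E14.5. Over all genes listed, 18.9% were higher and 12.9% lower at E11.5, against 2.89% and 2.12% at E14.5. Smaller ratios at E14.5 were thus not particular to this set. As deposited, ratios were above 0 at both stages for 27 genes and below 0 at both for 4 (*Dvl1*, *Dvl3*, *Axin1* and *Sfrp4*), of which *Axin1* turned positive at E14.5, to 0.01, when rescaled without erythroid genes. Over all genes listed, 53.9% were above 0 at E11.5 and 50.7% at E14.5, and how many kept their sign was not counted. The alleles differ between the stages, a loss restricted to crest lineages against a weakened allele in every cell, so stage and allele cannot be told apart. Whether the ratios differ between the stages was not tested.

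**Figure D4:**
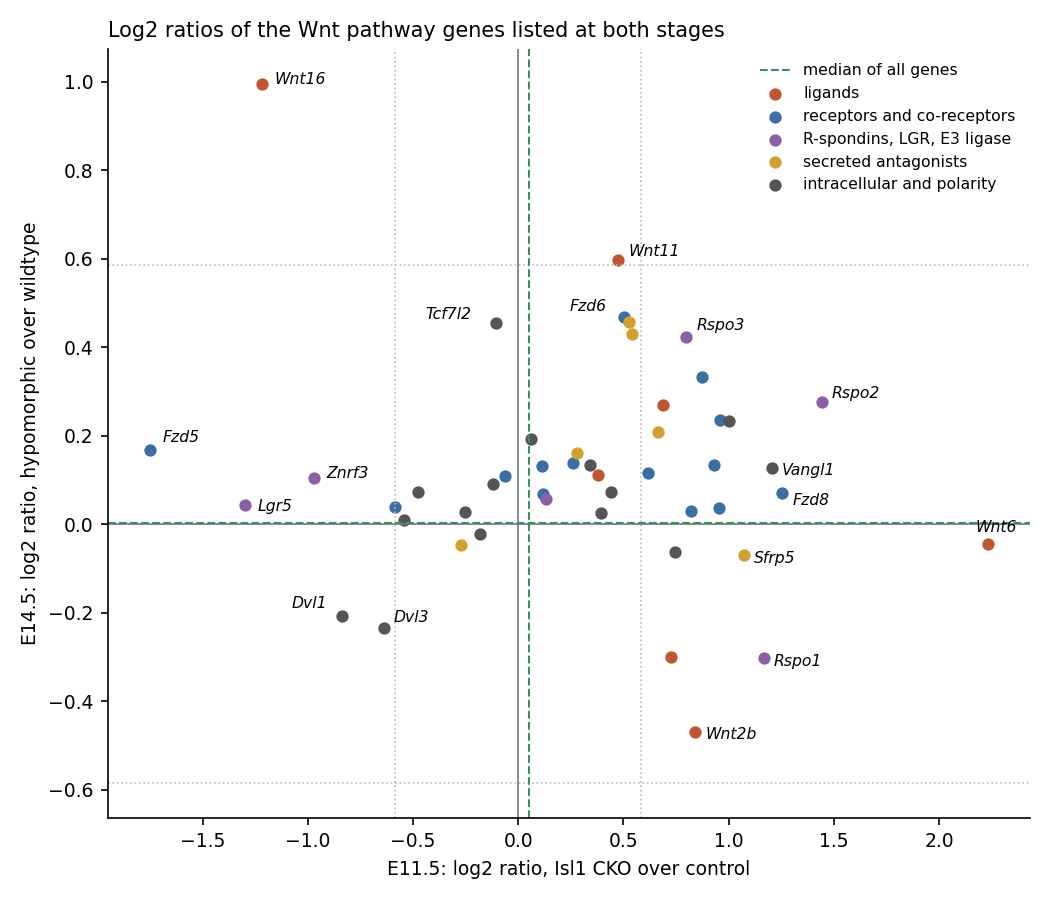
Log2 ratio at E11.5 (Isl1 CKO over control, horizontal) against that at E14.5 (hypomorphic over wildtype, vertical) for the 48 genes listed at both stages, coloured by role; dashed lines are the medians of all genes and dotted lines mark 1.5-fold. Wnt16 stands alone at the upper left, at -1.22 and 0.99, and Fzd5, Lgr5 and Znrf3 lie far to the left but near 0 on the vertical axis.

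Between the stages, in ganglia with intact *Isl1*, the 7 largest log2 ratios in either direction belonged to genes of secreted proteins. The 2 tables were normalized separately and the E11.5 control also carries Cre and the reporter, so levels across stages are given as they stand. Of the 48 genes 10 were 1.5-fold or more higher in E14.5 wildtype than in E11.5 control, against 29.7% of 12727 genes, and 9 were lower, against 12.7% of genes. The median log2 ratio was 0.09, beside 0.24 for all genes. When ratios were centred on the all-gene median, 8 of the 48 were higher, or 16.7% against 19.2% of all genes, and 13 were lower, or 27.1% against 19.5%. Higher genes then made 38.1% of those past the threshold, against 52.6% as deposited. Over all genes these shares were 49.7% and 70.0%. Centring also took the median of the set to -0.14.

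*Sfrp5* (mm9 chr19:42272461-42276742) had the highest ratio, 4.58 FPKM in E11.5 control and 39.5 FPKM in E14.5 wildtype, a log2 ratio of 3.08, and passed from rank 28 of the set to rank 3. *Rspo3* had the lowest, 12.1 and 2.99 FPKM, a log2 ratio of -1.98, followed by *Wnt5a* at 13.6 and 3.99 FPKM, a log2 ratio of -1.75, and *Lef1* at 2.74 and 0.976 FPKM, a log2 ratio of -1.40. *Fzd1* (8.58 and 4.13 FPKM), *Rspo2* (4.08 and 2.06 FPKM), *Wnt11*, *Wnt5b*, *Prickle3* and *Tcf7* were the other lower genes. The other higher genes were *Wnt6* (0.332 and 1.46 FPKM), *Sfrp4* (1.74 and 5.50 FPKM), *Wnt2b* (1.4 and 4.46 FPKM), *Rspo1*, *Dvl1*, *Wnt9a*, *Fzd8*, *Dvl3* and *Fzd9*. *Dvl1* and *Dvl3* together with *Dvl2* summed to 59.6 FPKM at E11.5 and 105 FPKM at E14.5, and the listed ligands of both stages to 28.9 and 19.8 FPKM. *Lrp6* (17.8 and 18 FPKM) and *Fzd3* (20.8 and 20.4 FPKM) were level, with signs that depend on the scaling. Cell cycle genes were lower at E14.5, all 12 past 1.5-fold, and their part in the stage values was not tested.

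**Figure D5:**
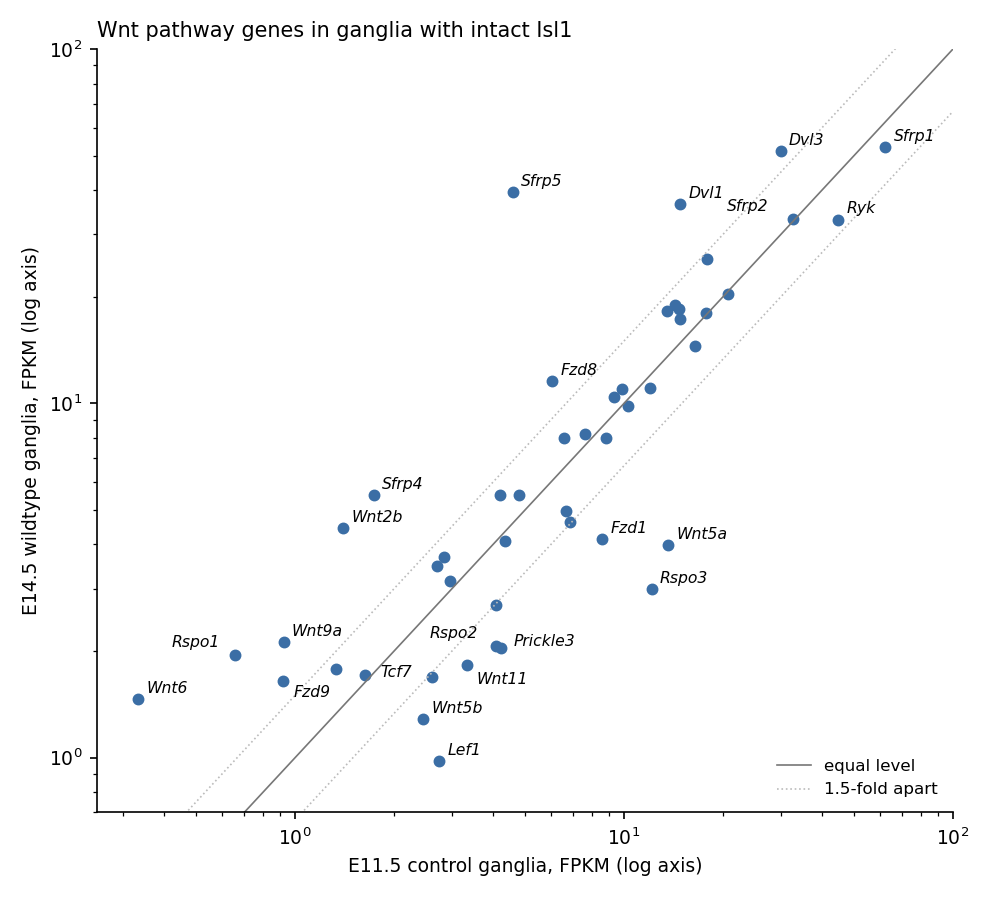
FPKM of the 48 genes in E11.5 control (horizontal) and E14.5 wildtype (vertical) ganglia, 1 pooled value each, on log axes; the solid line is equal level and dotted lines mark 1.5-fold. Sfrp5 lies farthest above the lines, at 4.58 and 39.5 FPKM, and Rspo3, Wnt5a and Lef1 lie farthest below.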

How the data were processed

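Sympathetic ganglia of E11.5 and E14.5 mouse embryos were profiled by polyA RNA-seq in 8 libraries, 2 for each of 4 groups, which were grouped by their titles. In the study's methods, TopHat alignments of paired-end reads on mouse genome build mm9 were passed to cuffdiff. The submitters' processing notes name TopHat 1.3.1, Cuffdiff 1.3.0 and Bowtie, and also list a fly genome build, a conflict that could not be settled here. The deposited values are FPKM, estimated by the authors over both libraries of a group, listed where at least 1 genotype reached 1 FPKM. The deposited tables also hold the authors' fold changes and p-values, which were not used.

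Log2 ratios used a pseudocount of 0.1 and a threshold of 1.5-fold; no test was run, because each group has 1 pooled value and none for its single libraries, and read depth is unknown. Python 3.11.15, pandas 2.3.3 and numpy 2.4.6 were used, and the counting was tested on simulated data. Gene symbols were placed on mm9 with the GENCODE annotation of that build, and promoters came from RefSeq on GRCm38.p6, with no conversion between builds.

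The text names genes of the set that were 1.5-fold or more apart with at least 2 FPKM in either genotype, the 2 most abundant of each role and those listed in 1 table only. Of each pathway list it names the 3 most abundant genes and up to 5 with the largest change at 5 FPKM or more, and of each marker list the 2 most abundant; not all of these are printed, and the other named genes were chosen after their values were seen. The genes, lists and motifs were chosen with earlier results of these data known. Alternatives were the pseudocount, filters on low FPKM, the fold threshold and the scaling. Lists of dorsal neural tube, mesonephros and gonad, sensory neuron, erythroid and endothelial markers were looked up as well. At E11.5, 2 of 2 listed dorsal neural tube, 5 of 6 mesonephros and gonad, 4 of 8 sensory neuron, 10 of 12 erythroid and 3 of 11 endothelial markers were 1.5-fold or more higher. The share over all genes was 18.9%. Another 9 of 11 dorsal neural tube and 6 of 12 mesonephros and gonad markers were not listed. Nor were 3 of 11 sensory neuron and 3 of 15 erythroid markers. The 2 listed neural tube markers summed to 1.32 FPKM in control and 4.75 FPKM in CKO ganglia.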

Additional observations from a re-analysis of the deposited data

Results flagged for a closer look

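*Wnt16* stood out because its ratios point in opposite directions in the 2 comparisons, each past 1.5-fold. It was 6.86 FPKM in control and 2.89 FPKM in *Isl1* CKO ganglia at E11.5, and 4.63 FPKM in wildtype and 9.33 FPKM in hypomorphic ganglia at E14.5. The log2 ratio at E14.5 minus that at E11.5 was 2.21. The difference was not tested, since each group has 1 pooled value, and stage and allele cannot be told apart.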

How the results depend on the processing

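Every count below is of Wnt pathway genes past the threshold. At E11.5, where 6 were lower and 22 higher, 12 were higher among genes of 5 FPKM or more in either genotype, 3 were lower and 8 higher at a threshold of 2-fold, and 10 were lower at 1.2-fold. At E14.5, where 2 were lower and 2 higher, 1 was lower and 1 higher with a pseudocount of 1, 0 were lower and 1 higher at 5 FPKM or more, 0 were lower among genes of 1 FPKM or more in both genotypes, 1 was lower and 0 higher at 2-fold, and 5 were lower and 10 higher at 1.2-fold. Between the stages, where 9 were lower and 10 higher, 3 were lower and 5 higher at 5 FPKM or more, 6 were higher at 1 FPKM or more in both, 5 were lower at 2-fold and 19 were higher at 1.2-fold. Fewer genes enter under the FPKM filters, and the 1.2-fold and 2-fold thresholds count more and fewer genes by construction. The stage median, 0.09, became -0.14 when centred and -0.042 when scaled to the upper quartile. All other counts stayed within 1.5 times. The medians at E11.5 and E14.5 kept their sign under the alternatives run. Gene ratios were run for genes of the set past 1.5-fold at 2 FPKM or more, and for the 2 most abundant of each role. These also kept their sign, except *Lgr4*, *Ror1* and *Ryk* at E11.5, *Axin1* at E14.5, and *Lrp5*, *Lrp6*, *Sfrp2*, *Tcf7l1*, *Tcf7l2*, *Znrf3* and *Fzd3* between the stages, all under another scaling. Other named genes, such as *Prickle4*, and the genes of the pathway and marker lists were not run. Rescaling without erythroid genes moved the all-gene median by -0.23 at E11.5, and centring moved it by -0.24 between the stages. No paired analysis was possible because the deposited values pool the 2 libraries of each group and carry no replicate number, and for the same reason no library could be left out.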
